A study of Mus musculus with 6 samples.

Results

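Genes that move, esterify or export cholesterol were followed in RM-1 cells, a mouse prostate cancer line. They are Stard3, Stard4 and Stard5, Soat1 and Soat2, Abca1 and Abcg1, Nr1h2, and Npc1 and Npc2, which are 10 of the 55487 genes in the deposited expression table, found by gene symbol. The members were chosen by their differences between Bhlhe22 and vector cells: Stard5 and Soat2 were strongly higher in Bhlhe22 cells while genes of sterol synthesis were lower. Those differences are therefore given as a description, not as evidence.

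Bulk RNA-seq was done on 3 libraries of RM-1 cells carrying a lentivirus that overexpresses Bhlhe22, a basic helix-loop-helix transcription factor, and on 3 libraries of RM-1 cells carrying a blank lentivirus (vector cells). Cells of both groups were grown in culture and both carried a lentivirus. The labels name neither the promoter that drives the transgene nor the time after transfer, and do not say whether the cells are 1 clone. They also leave unsaid whether the libraries are separate cultures, so the spread behind each p-value may be only technical.

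Cells take up cholesterol as esters in lipoproteins, free it in the lysosome, and pass it out through the NPC2 and NPC1 proteins. Carriers with a START lipid-binding domain then move it between membranes. Excess cholesterol is either joined to a fatty acid by the acyltransferases SOAT1 and SOAT2 for storage in lipid droplets, or exported by ABCA1 and ABCG1, whose genes are activated by the oxysterol-sensing liver X receptors. SOAT2 is best known from liver and intestine and SOAT1 from most other tissues. In mouse cells Stard4 is known as a target of SREBP-2, the activator of sterol synthesis, and Stard5 as a gene that responds to stress of the endoplasmic reticulum (ER).

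The 6 libraries held 15464709 to 25129552 counts. Bhlhe22 had 0 counts in each vector library and 8706, 14785 and 17995 counts in Bhlhe22 replicates 1, 2 and 3. Bhlhe22 replicate 1 stood apart within its group. The SD over genes of the difference in log2 CPM (counts scaled to the library total) was 0.53 and 0.56 between it and the other Bhlhe22 libraries, 0.42 between those, and 0.39 to 0.40 between vector libraries. Against its group mean, genes in the lowest tertile of transcript length had a median deviation of 0.15 (log2) in that library and those in the highest tertile -0.16, while in vector libraries these medians lay between -0.02 and 0.02. Values without it are given beside the results whose call, direction or count it changes. Of the prostate and epithelial markers, Krt8 and Krt18 were abundant, at 389 ± 7.24 and 466 ± 16.5 FPKM (counts scaled to gene length and library total; SD, n = 3) in vector cells, while Pbsn and Krt5 had 0 counts in all 6 libraries. Krt8 was lower in Bhlhe22 cells (log2 fold change -0.47), and the 10 markers summed to 828 to 871 FPKM in vector and 688 to 812 FPKM in Bhlhe22 libraries. The mesenchymal genes Vim and Twist1 were at 214 and 43.4 FPKM in vector cells, and the 9 mesenchymal markers summed to 289 to 301 FPKM in vector and 263 to 270.2 FPKM in Bhlhe22 libraries, most of it Vim. Of these 9, Snai2 was higher in Bhlhe22 cells (log2 fold change 1.86), 2 were lower, Vim among them (-0.33), and 6 were not called.

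In vector cells the members covered a wide range of levels. Npc2 was highest, at 104, 100.2 and 106 FPKM in replicates 1, 2 and 3. Stard4 followed at 21.2, 22.02 and 21.8 FPKM and Soat1 at 12.7, 12.6 and 12.9 FPKM. In FPKM these 3 genes did not overlap with each other or with any other member. Stard3, Nr1h2, Npc1 and Soat2 came next, with means from 5.39 down to 4.45 FPKM, and in this order each overlapped its neighbour. Stard5 was at 3.19, 3.09 and 2.79 FPKM. The exporters were lowest, Abcg1 at 0.461, 0.469 and 0.593 FPKM and Abca1 at 0.0422, 0.0463 and 0.0714 FPKM. By FPKM, Soat2 and Stard5 came next after Npc2 in Bhlhe22 cells, ahead of Soat1 and Stard4 and with no overlap between these neighbours. Npc1, Nr1h2 and Stard3 overlapped. The order of genes rests on the gene lengths behind FPKM. It was another in CPM, with Soat1 (166) above Stard4 (146) in vector cells.

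**Figure D1:**
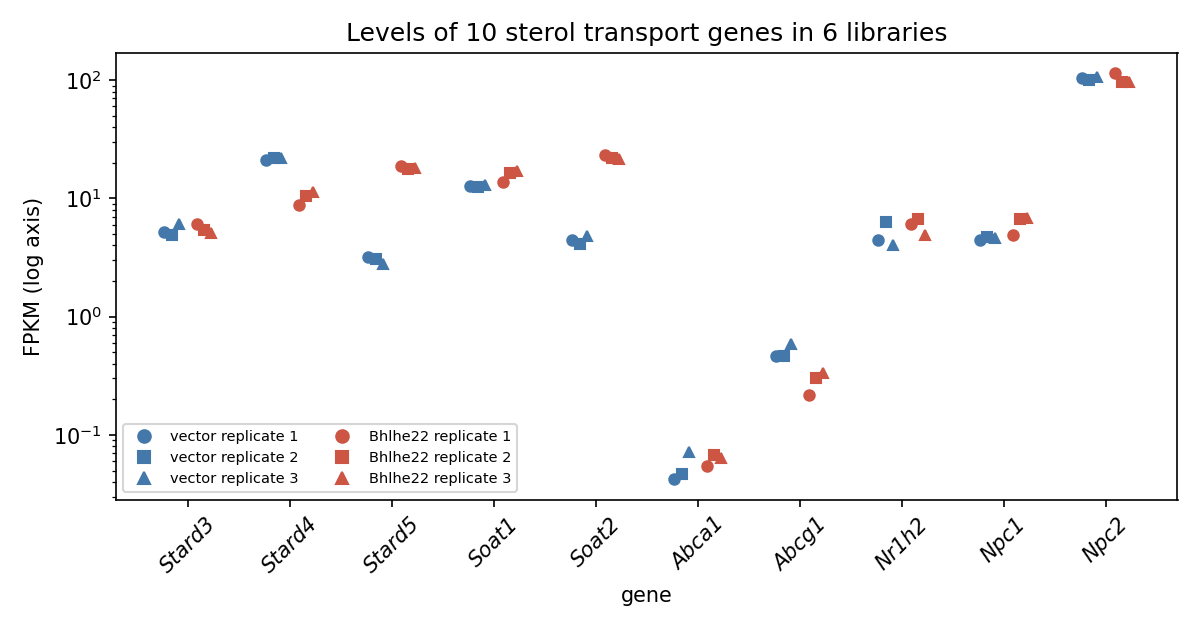
Level of each of the 10 genes in FPKM on a log axis, 1 point per library, with vector libraries in blue and Bhlhe22 libraries in red and the replicate number given by the symbol. Stard5 and Soat2 stand higher and Stard4 and Abcg1 lower in all 3 Bhlhe22 libraries, and Abca1 stays under 0.1 FPKM throughout.

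A gene is called below when its adjusted p is under 0.05 in edgeR's quasi-likelihood test over all genes with Benjamini-Hochberg adjustment. Of 14663 genes tested 19.6% were called, 10.4% higher and 9.28% lower in Bhlhe22 cells. All 10 members passed the filter on low counts. Of these, 4 were called higher (Stard5, Soat2, Soat1, Npc1), 2 lower (Stard4, Abcg1) and 4 were not called (Stard3, Abca1, Nr1h2, Npc2). The median log2 fold change was 0.26 over the 10 members and 0.0098 over all genes tested. The 6 called members were also those whose groups did not overlap, which was the case for 40.8% of all genes tested. Nothing is read from these counts, because the same comparison chose the set. Nearest to the threshold were Npc1 and Soat1 on the called side, with adjusted p of 0.046 and 0.039, and Nr1h2 on the other, with 0.359. Stard5, Soat2 and Stard4 stayed called in each of the 6 fits that left out 1 library, and Soat1, Npc1 and Abcg1 did not. In bulk RNA, fewer cells with a transcript and less of it per cell cannot be told apart.

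The promoters of the START genes are shown first, because Stard5 had the largest difference of the set and Stard3, of the same family, was not called. Both stretches are the 192 bases that begin 250 bases before the RefSeq start site, on the plus strand of GRCm38.p6, at chr7:83631767-83631958 for Stard5 and chr11:98358118-98358309 for Stard3. Capitals mark a cyclic AMP response element core (TGACG) in Stard5 and a sterol regulatory element (TCACNCCAC) in Stard3.
Stard5: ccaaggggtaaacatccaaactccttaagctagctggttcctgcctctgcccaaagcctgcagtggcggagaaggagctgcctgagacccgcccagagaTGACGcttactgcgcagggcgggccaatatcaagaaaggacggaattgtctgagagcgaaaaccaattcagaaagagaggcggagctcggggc
Stard3: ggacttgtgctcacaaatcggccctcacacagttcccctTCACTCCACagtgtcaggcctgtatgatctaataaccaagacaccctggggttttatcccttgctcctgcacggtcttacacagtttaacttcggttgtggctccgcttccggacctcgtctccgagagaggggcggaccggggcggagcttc
The core is found in 11.9% of 32851 RefSeq promoter windows of this length and the sterol regulatory element in 0.749%, with both strands searched. An E-box (CANNTG), the general motif bound by basic helix-loop-helix factors, is found in 57.7% of windows and has no match in the Stard5 or the Stard3 window. The ER stress response element (CCAAT, 9 bases, CCACG) is found in 0.0913% and likewise has no match in either. RefSeq entries were at hand for 6 members (Stard3, Stard5, Soat1, Abca1, Nr1h2, Npc2) and none for Stard4, Soat2, Abcg1 and Npc1. Among those 6 the E-box had 1 match each in Abca1 (CACGTG) and Nr1h2 (CACCTG), both members that were not called. A match is a run of letters, not a site shown to be bound.

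Among the carriers, the soluble START proteins Stard4 and Stard5 moved in opposite directions. Stard5 had 3.19, 3.09 and 2.79 FPKM in vector replicates 1, 2 and 3 and 18.6, 17.7 and 18.1 FPKM in Bhlhe22 replicates 1, 2 and 3. The lowest Bhlhe22 library was thus far above the highest vector library, on raw counts of 354 to 390 against 1781 to 2814. The fitted difference was 6.10-fold (log2 fold change 2.61, SE 0.08), the 51st highest of 14663, and ranged from 2.55 to 2.65 on the log2 scale when each library was left out. Stard5 (chr7:83631959-83653127, GRCm38, plus strand) shares 22.01% of its exon length with Il16 on the other strand and 1.85% with a predicted gene on its own strand. Il16 itself had 0, 0 and 1 counts in vector and 0, 5 and 7 counts in Bhlhe22 libraries. The labels do not say whether counting used strand, so reads of Stard5 and Il16 in the shared stretch cannot be told apart.

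Stard4, at 21.2, 22.02 and 21.8 FPKM in vector cells, had 8.87, 10.4 and 11.2 FPKM in Bhlhe22 replicates 1, 2 and 3. All Bhlhe22 libraries lay below all vector libraries. The change was 2.099-fold (lower in Bhlhe22 cells, log2 fold change -1.07 with an SE of 0.09, edgeR adjusted p = 0.00054), and on the log2 scale -0.99 without Bhlhe22 replicate 1. Stard3, which tethers late endosomes to the ER, had 5.20, 4.93 and 6.04 FPKM in vector and 6.08, 5.44 and 5.07 FPKM in Bhlhe22 libraries. Its groups overlapped over most of their range (0.06 on the log2 scale with an SE of 0.12, edgeR adjusted p = 0.773), and the sign turned without vector replicate 2 (-0.0020) or Bhlhe22 replicate 1 (-0.03).

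The make-up of the 3 START transcripts differed more than their sum. Stard3, Stard4 and Stard5 together came to 30.1 ± 0.477 FPKM in vector and 33.9 ± 0.515 FPKM in Bhlhe22 cells. Stard5 made up 10.1 ± 0.844% of that sum in vector cells and 53.6 ± 1.61% in Bhlhe22 cells. Stard4 was 7.19 ± 0.572 times the level of Stard5 in vector cells and 0.561 ± 0.0757 times in Bhlhe22 cells. The order of these carriers was thus reversed between the groups in every library.

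In FPKM the esterifying enzymes showed a similar change of order. Soat2 had 4.49, 4.09 and 4.79 FPKM in vector and 23.4, 21.97 and 21.3 FPKM in Bhlhe22 libraries, on 213 to 269 against 959 to 1419 counts. The groups were far apart and each group was narrow. The fitted difference was 5.07-fold (log2 fold change 2.34, SE 0.10), 67th highest of all genes tested, and 2.28 to 2.40 on the log2 scale over the fits without 1 library. Soat2 lies at chr15:102150526-102163469 on the plus strand in GRCm38 and shares no exon sequence with another gene in GENCODE M21. It is not to be confused with Acat2, a thiolase gene of sterol synthesis whose symbol resembles an older name of the SOAT2 enzyme, and which was lower in Bhlhe22 cells (log2 fold change -1.51, edgeR adjusted p = 0.00045, chosen after its value was seen).

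Soat1 had 12.7, 12.6 and 12.9 FPKM in vector and 13.7, 16.5 and 17.0 FPKM in Bhlhe22 libraries. The groups did not overlap, but Bhlhe22 replicate 1 lay close to the vector libraries. The difference was 1.26-fold (0.33 on the log2 scale with an SE of 0.09, edgeR adjusted p = 0.039). When Bhlhe22 replicate 1 was left out, it was 0.41 on the log2 scale (adjusted p = 0.00037), and without any 1 of the other 5 libraries Soat1 was not called (adjusted p from 0.0993 to 0.133). It was also not called with the replicate number as a block (adjusted p = 0.069). With each library corrected for its trend on GC content and transcript length, an alternative chosen after seeing the data, the value was 0.38 (adjusted p = 0.0028). The longest Soat1 transcript has 8371 bases, and whether its length bears on these values was not tested.

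Summed over both enzymes, the level was 17.2 ± 0.497 FPKM in vector and 38.0 ± 0.694 FPKM in Bhlhe22 cells. Soat2 made up 26.1%, 24.5% and 27.2% of that sum in vector replicates 1, 2 and 3 and 63.0%, 57.1% and 55.7% in Bhlhe22 replicates 1, 2 and 3. By FPKM it was the minor transcript in every vector library and the major one in every Bhlhe22 library. That order rests on the gene lengths behind the deposited FPKM, which were not compared with the annotated exons. In CPM, which is not scaled to length, Soat1 was at 208 and Soat2 at 59.4 in Bhlhe22 cells. RNA levels say nothing here on the activity of the enzymes. Markers of hepatocytes and enterocytes, the cells best known for Soat2, were close to absent. Of 10 such genes, 7 had 0 counts in all libraries, among them Apoa1, Ttr and Fabp2, and the sum of all 10 lay between 0 and 0.00277 FPKM in vector and between 0.00579 and 0.0857 FPKM in Bhlhe22 libraries.

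**Figure D2:**
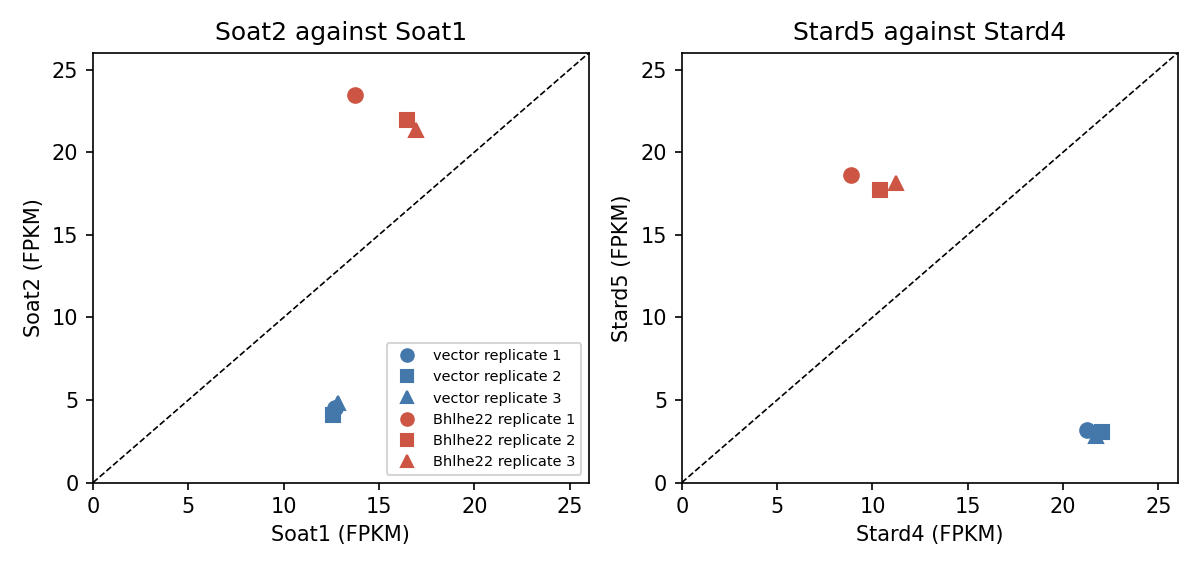
FPKM of Soat2 against Soat1 (left) and of Stard5 against Stard4 (right), 1 point per library. Vector libraries are blue and Bhlhe22 libraries red, and the dashed line marks equal FPKM, which depends on gene length. All vector libraries lie below the line and all Bhlhe22 libraries above it in both panels.

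The exporters were scarce in both groups. Abcg1, which passes cholesterol to high density lipoprotein, had 69, 80 and 105 counts in vector and 28, 49 and 70 counts in Bhlhe22 libraries, or 0.461, 0.469 and 0.593 FPKM against 0.217, 0.3003 and 0.334 FPKM. The groups did not overlap in FPKM, although their raw counts did. The difference was 1.75-fold lower (log2 fold change -0.80 with an SE of 0.21, edgeR adjusted p = 0.034). Leaving out any 1 vector library or Bhlhe22 replicate 2 ended the call (adjusted p from 0.0820 to 0.1205), while leaving out Bhlhe22 replicate 1 gave -0.67 (adjusted p = 0.032). Abca1, which loads lipid-poor apolipoproteins, had 8, 10 and 16 counts in vector and 9, 14 and 17 in Bhlhe22 libraries. A difference was not detectable at this depth (log2 fold change 0.24 with an SE of 0.31, edgeR adjusted p = 0.647). Both exporters are abundant in macrophages, and of 10 macrophage markers 5 had 0 counts in all libraries (Adgre1, Lyz2, Itgam, Msr1, Fcgr1). The summed level of the 10 was 26.6 to 28.6 FPKM in vector and 28.4 to 32.3 FPKM in Bhlhe22 libraries, most of it Cd68, at 19.9 and 23.6 FPKM, and Cd14, at 7.88 and 7.04 FPKM in vector and Bhlhe22 cells.

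Nr1h2, the gene of liver X receptor beta, varied more between libraries of 1 group than between the groups. It had 4.44, 6.28 and 4.02 FPKM in vector and 6.08, 6.67 and 4.87 FPKM in Bhlhe22 libraries (log2 fold change 0.28 with an SE of 0.19, edgeR adjusted p = 0.359). The values overlapped, and the log2 fold change ran from 0.15 to 0.49 over the fits without 1 library, none of which called it.

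Of the lysosomal pair, Npc2, the soluble carrier, had 104, 100.2 and 106 FPKM in vector and 114, 96.1 and 95.7 FPKM in Bhlhe22 libraries. Bhlhe22 replicate 1 was the highest of all 6 and the other Bhlhe22 libraries the lowest. The log2 fold change was 0.0059 (SE 0.09, edgeR adjusted p = 0.976), with the sign turning between scalings, and -0.10 without Bhlhe22 replicate 1 (adjusted p = 0.120). Npc1, the membrane protein that receives cholesterol from NPC2, had 4.46, 4.69 and 4.65 FPKM in vector and 4.93, 6.71 and 6.84 FPKM in Bhlhe22 libraries. As in Soat1, Bhlhe22 replicate 1 was the lowest of its group. The difference was 1.36-fold (0.44 on the log2 scale with an SE of 0.12, edgeR adjusted p = 0.046). Leaving out Bhlhe22 replicate 1 gave 0.57 (adjusted p = 0.00014), and leaving out any other library ended the call (adjusted p from 0.111 to 0.154). With the GC and length correction it was 0.48 (adjusted p = 0.0017). Npc1 shares 5.31% of its exon length with genes on the other strand. The ratio of Npc2 to Npc1 was 23.2, 21.4 and 22.8 in vector and 23.2, 14.3 and 14.0 in Bhlhe22 replicates 1, 2 and 3, so in this ratio Bhlhe22 replicate 1 sat with the vector libraries.

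**Figure D3:**
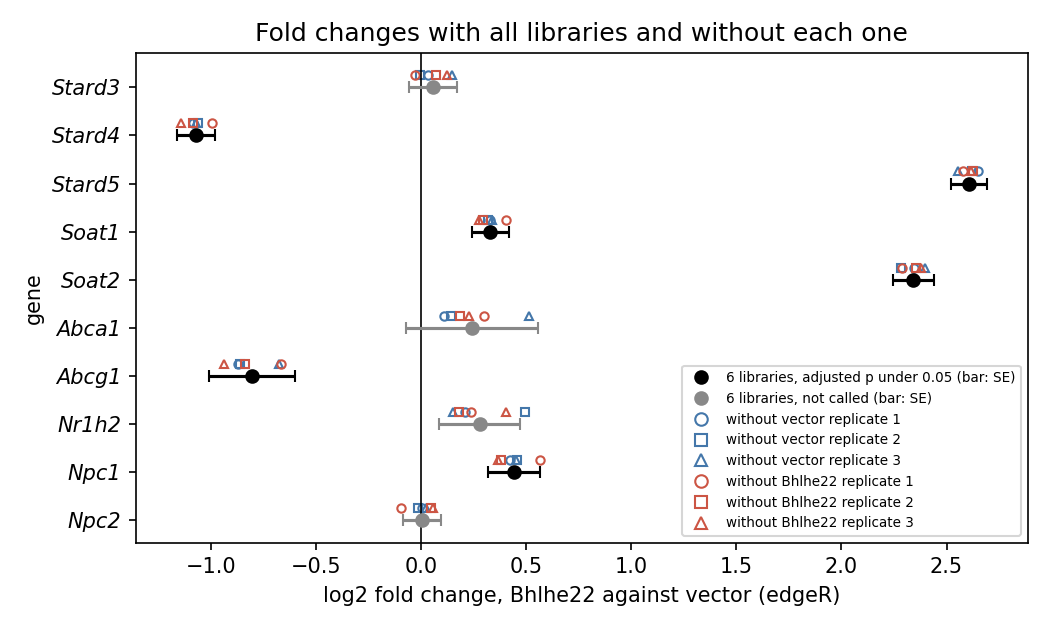
Log2 fold change of each gene between Bhlhe22 and vector cells (edgeR) with its SE as a bar, black where called and grey where not, and above it 6 open symbols for the fits that leave out 1 library. The symbols of Stard5, Soat2 and Stard4 stay close to their points, while those of Stard3 and Npc2 lie on both sides of 0.

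The genes around the members were counted by function, on lists drawn from general knowledge with earlier results of these data known. Beside them stand the shares over all genes given above. Storage was the step nearest to Soat2. Of 10 tested genes of ester turnover and lipid droplets, 2 rose and 8 were not called (median log2 fold change -0.03). Dgat2, which makes the triglyceride that is stored with cholesterol ester, had 5.82, 5.29 and 5.61 CPM in vector and 31.4, 33.6 and 28.2 CPM in Bhlhe22 libraries. It rose 5.56-fold (log2 fold change 2.48 with an SE of 0.11, edgeR adjusted p = 5.0e-05) and was called in each fit without 1 library. Plin2, a coat protein of lipid droplets, rose 1.26-fold (0.33, edgeR adjusted p = 0.012) but lost its call when any 1 vector library or Bhlhe22 replicate 2 was left out (adjusted p from 0.0526 to 0.0646). Dgat1, of the same protein family as the SOAT enzymes (0.27, edgeR adjusted p = 0.264), and Lipa and Nceh1, which split cholesterol esters (-0.21 and 0.02), were not called. These genes were named after their values were seen.

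Of 16 other sterol carriers tested, 6 rose and 10 were not called (median log2 fold change 0.15). The oxysterol-binding protein family held 4 of the 6. Osbpl2 had 37.8 ± 1.21 CPM in vector and 117 ± 7.90 CPM in Bhlhe22 cells, a rise of 1.63 on the log2 scale with an SE of 0.08 (edgeR adjusted p = 6.1e-05). Osbpl6 rose from 16.5 ± 1.25 to 35.7 ± 4.70 CPM (1.12) and Osbpl9 from 175 ± 3.16 to 240 ± 6.32 CPM (0.45), and all 3 were called in each fit without 1 library. Osbp (0.44), Gramd1b (0.81), a carrier at contacts of the ER with the plasma membrane, and Tmem97 (0.68), an ER protein that binds NPC1, complete the count and were named after their values were seen. The number that rose was 4 when any 1 vector library or Bhlhe22 replicate 2 was left out, and 7, with 1 gene lower, when Bhlhe22 replicate 1 was. Of 9 further tested genes listed with the START family, Stard3nl (0.58) and Stard6 (0.88) rose, Stard9 (-0.70) fell and 6 were not called. Stard3nl is counted there although its protein lacks the START domain. The median of this list was 0.0030, and 3 of its genes were higher without Bhlhe22 replicate 1. None of Stard3nl, Stard6 and Stard9 was called without vector replicate 1, where their edgeR adjusted p lay between 0.056 and 0.083. Stard3nl was also not called without vector replicate 3 (0.058), nor Stard6 without vector replicate 3 or Bhlhe22 replicate 2 or 3 (0.065 to 0.078), nor Stard9 without vector replicate 2 or Bhlhe22 replicate 2 (0.068 and 0.059).

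Among 8 tested genes of lipoprotein uptake, 5 fell, 1 rose and 2 were not called (median log2 fold change -0.27). The lipoprotein receptor gene Lrp8 fell from 63.1 ± 2.13 to 30.9 ± 7.18 CPM (-1.03, edgeR adjusted p = 0.0065). Scarb1, which encodes a receptor for high density lipoprotein, was also among the lower genes (-0.27). Vldlr went the other way, from 186 ± 5.18 to 285 ± 26.5 CPM (0.62, edgeR adjusted p = 0.0032). Leaving out any 1 vector library gave 2 lower genes, leaving out Bhlhe22 replicate 2 or 3 gave 3, and leaving out Bhlhe22 replicate 1 gave 5 lower and 2 higher.

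Of 8 further genes of efflux and its acceptors, Scarb1 fell (-0.27, edgeR adjusted p = 0.044) and 7 were not called (median log2 fold change -0.18). Of the 6 fits that left out 1 library, Scarb1 kept its call only when Bhlhe22 replicate 1 was the one left out, where 1 other gene of the list was higher. Abcg5 had 0 counts in all libraries, and Apoe was at 0.462 and 0.531 FPKM in vector and Bhlhe22 cells. Of 14 partners and targets of the liver X receptors, 2 fell and 12 were not called (median -0.11). These were Srebf1 (-0.30, edgeR adjusted p = 0.029), an activator of fatty acid synthesis, and Scd1 (-0.44, edgeR adjusted p = 0.025), a fatty acid desaturase. Neither was called without any 1 vector replicate, nor Scd1 without Bhlhe22 replicate 2 (0.065) or Srebf1 without Bhlhe22 replicate 3 (0.077), and without Bhlhe22 replicate 1 the list held 3 lower genes and 1 higher. Nr1h3, the gene of liver X receptor alpha, was at 0.285 and 0.396 FPKM and was not called (0.49, edgeR adjusted p = 0.130). Of 5 oxysterol enzymes, Cyp39a1 rose (0.80, edgeR adjusted p = 0.033), from 1.296 ± 0.226 to 2.25 ± 0.114 CPM. Of the others 1 fell and 3 were not called. Cyp39a1 was not called without any 1 library but Bhlhe22 replicate 1 (0.056 to 0.116), nor by DESeq2 (0.054). The oxysterol list held 2 higher genes without Bhlhe22 replicate 1.

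**Figure D4:**
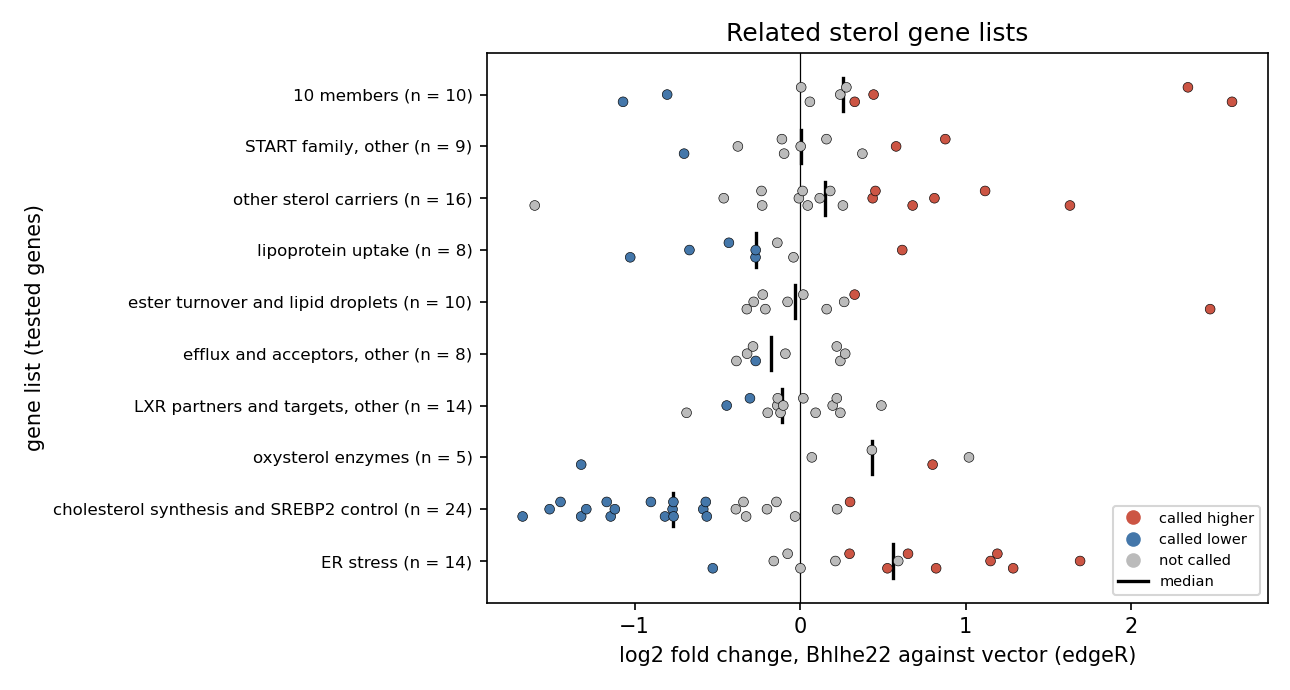
Log2 fold change between Bhlhe22 and vector cells (edgeR) of every tested gene of the 10 members and of 9 related lists, 1 point per gene, red where called higher, blue where called lower and grey where not called, with the median of each list as a black bar. Dgat2 at 2.48 stands alone at the right of its list, and the median of the sterol synthesis list is -0.77.

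Sterol synthesis and ER stress, the known settings of Stard4 and Stard5, can be put beside them. Of 24 genes of cholesterol synthesis and its SREBP-2 control, 16 fell, Insig2 rose (0.30, named after its value was seen) and 7 were not called (median log2 fold change -0.77), and this pattern was part of the reason for the set. Stard4, known as an SREBP-2 target, had -1.07. Hmgcs1 (-1.29) and Insig1 (-1.17) had differences of like size, while Srebf2 itself was not called (-0.03, edgeR adjusted p = 0.819). Of 14 ER stress genes, 8 rose, Sdf2l1 fell (-0.53) and 5 were not called (median 0.56). Atf3 (1.69), Ddit3 (1.29) and Dnajb9 (1.15) were those with the smallest adjusted p, and the chaperone Hspa5 was not called (0.59, edgeR adjusted p = 0.159). Leaving out any 1 vector library gave 6 higher ER stress genes and leaving out any 1 Bhlhe22 library 7 or 8. Neither Sdf2l1 nor Insig2 was called when any library but Bhlhe22 replicate 1 was left out. Without Bhlhe22 replicate 1, 2 ER stress genes were lower, and 2 synthesis genes were higher and 19 lower. Whether these genes and Stard4 or Stard5 depend on each other was not tested.

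The genes whose pattern over the 6 libraries came nearest to Stard5 and Soat2 were looked up among 11359 protein-coding genes that averaged 1 CPM or more, by the root mean square difference of log2 CPM after centring each gene. Nearest to Stard5 were Atp2a3 (0.09), a calcium pump of the ER, Gm867 (0.12), and Stbd1 (0.12), a glycogen-binding protein. Nearest to Soat2 were Mmp19 (0.08), a matrix metalloprotease, Dgat2 (0.10), and Slc1a7 (0.11), a glutamate transporter. Soat2 was the 10th nearest gene to Stard5 (0.18). The difference between the groups makes up most of each pattern, so nearness mainly says that the fold changes were alike.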

How the data were processed

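The authors deposited 1 table with raw counts and FPKM values per gene for each of the 6 libraries. Per the submitters' processing notes, CASAVA 1.8, HISAT2 2.1.0, StringTie 1.3.4b and edgeR were used on GRCm38, with no roles stated. The annotation release, filters and strandedness are unstated there (not given in the sources used here). Among the 10435 genes that had 100 or more counts throughout, the deposited count and FPKM gave the same gene length in all 6 libraries within 0.001%. These lengths were not compared with the annotated exons.

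Counts were fitted with edgeR 4.0.16 (R 4.3.3): TMM scaling, filterByExpr (minimum count 10, minimum total 15), robust quasi-likelihood fits, Benjamini-Hochberg adjustment over all genes at 0.05, no covariate. The fit was tested on simulated data. CPM uses TMM-scaled library sizes. For 114 symbols with several identifiers, that with the highest total count stands for the symbol. Alternatives were DESeq2 1.42.0, limma 3.58.1 (voom, and log2 FPKM with a pseudocount of 1 or 0.1), other scalings and filters, a replicate block, each library left out, and, added after seeing the data, offsets for GC content and transcript length (splines, 5 degrees of freedom). Exons came from GENCODE M21, whose coordinates match those of the 10 members in the table, and promoters from RefSeq (GRCm38.p6).

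The members and lists were chosen with earlier results of these data known. Named were the 10 members, from each list up to 3 called genes with the smallest adjusted p, and the 3 genes nearest to Stard5 and to Soat2. Any other named gene was chosen after its values were seen. Some genes of these lists are counted but not reported here by name. Plots were drawn with matplotlib 3.10.9 under Python 3.11.15, from tables read with pandas 2.3.3 and numpy 2.4.6.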

Additional observations from a re-analysis of the deposited data

How the results depend on the processing

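Stard5, Soat2 and Stard4 kept their direction and their call under all 18 alternatives run, with log2 fold changes from 2.25 to 2.65, 2.09 to 2.40 and -1.14 to -0.99. The smallest values of Stard5 and Soat2 came from log2(FPKM + 1), where the pseudocount shrinks low levels. Soat1 and Npc1 each lost their call in 9 of 18 alternatives and Abcg1 in 4 of 18, with the direction kept. Of 4 members called higher, 2 were called with library size alone and 2 with limma on log2(FPKM + 1), and 2 to 4 without 1 library each. Of 2 called lower, 1 or 2 were called without 1 library each. Over the whole table, 715 to 2345 genes were higher and 633 to 2337 lower without 1 library each, against 1520 and 1361, and with GC content and length offsets 2044 were higher and 2061 lower. The fits without Bhlhe22 replicate 1 gave the highest of these counts.

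Stard3 turned sign without vector replicate 2 and Bhlhe22 replicate 1 (range -0.0268 to 0.1481 without 1 library each). Npc2 turned sign with upper quartile scaling (-0.0063), library size alone (-0.017), limma-voom (-0.0006), limma on FPKM (-0.021 with either pseudocount) and the GC and length offsets (-0.018), and ranged from -0.0954 to 0.0563 without 1 library each. The cause was not tested.

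With no filter, 3 lipoprotein uptake genes were lower (5 with the filter), no efflux gene was lower (1) and Insig2 was not called. The GC and length offsets called 2 instead of 1 lower in the START list, the efflux genes and the ER stress genes. They called 2 instead of 1 higher in the synthesis list, and 1 instead of 0 in efflux genes (higher) and in ester turnover (lower). Among oxysterol enzymes DESeq2 and no filter called 0 higher, and limma-voom and the filter of 1 CPM in 3 libraries 2, against 1.

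Same-numbered libraries had correlations of 0.03, 0.02 and 0.02 in their deviations from the group means. No library correlated best with its own number. These values cannot show whether libraries of 1 number shared a culture or day, which the labels leave unsaid. With the replicate block 1086 genes were higher and 993 lower, and 3 members were higher and 2 lower. That fit called 3 uptake genes lower, 1 gene of the START list higher and 1 liver X receptor target lower. It called 0 higher in the synthesis and oxysterol lists and 0 lower in the efflux list.

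Depth limits Abca1, with 8 to 17 counts per library.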
